A study of Nicotiana tabacum with 2 samples.

Results

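The accessible regions described here lie in the terminal segments, the first and the last 10% of the length, of the 19 chromosomes of the Niben261 assembly of Nicotiana benthamiana. They were mapped by transposase-accessible chromatin sequencing (ATAC-seq) in what the labels call tobacco callus, the unorganised tissue that forms on explants in culture. The study's methods name explants as the source of the nuclei, so the share of callus is not known. The high-NAA list came from a culture on 0.5 mg/L naphthaleneacetic acid (NAA, a synthetic auxin) and the low-NAA list from a culture on 0.1 mg/L NAA. A region was included when its summit, the point of highest read pileup, fell in a terminal segment. This took in 6963 of 31830 regions of the high-NAA list and 8635 of 39523 regions of the low-NAA list, or 15598 of 71353 in all. Of the others, 24290 in the high-NAA list and 29908 in the low-NAA list lay in the rest of the chromosomes, and 577 in the high-NAA list and 980 in the low-NAA list lay on unplaced scaffolds. The largest region end in either list stood in for the length of each chromosome, which gave lengths of 138 to 194 Mb and 587 Mb of terminal sequence.

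The study asked whether the auxin concentration of the medium changes how open the chromatin is. Each concentration was represented by 1 library, and the labels name no genotype, allele or further agent for either. The tobacco callus medium of the study's methods also held the cytokinin 6-BA and the antibiotics kanamycin and Timentin at either NAA concentration, and whether the explants taken for ATAC-seq carried the editing construct is not given in the sources used here. The high-NAA label states 3 weeks on the medium and the low-NAA label 2 weeks, whereas the study's methods give a single culture time, so time and concentration cannot be told apart. The organism on the labels is Nicotiana tabacum although the sequence names are those of N. benthamiana, and formaldehyde fixation and sonication are listed beside the transposase treatment. With 1 library per concentration there was no spread between samples and no test between concentrations, and every interval given in parentheses covers counting error only, at 95% except for the ratios of median width, whose intervals are wider.

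ATAC-seq uses the transposase Tn5, which inserts sequencing adapters where DNA is not covered by nucleosomes, so that promoters and other regulatory DNA in use stand out. In plants of the nightshade family such as tomato, genes are crowded towards the distal parts of the chromosome arms, and the DNA around the centromeres is rich in repeats and compact. Auxin acts on chromatin through the Aux/IAA repressors: when the hormone is present they are degraded, which releases auxin response factors from a corepressor that recruits histone deacetylases. The files mark neither genes nor centromeres, so the end at coordinate 1 of the assembly is called the left end and the other the right end.

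Accessible regions were modestly denser in the terminal segments than in the rest of the chromosomes, by nearly the same factor in both libraries. In the high-NAA list the terminal segments held 11.9 regions per Mb (11.6 to 12.1), against 10.3 per Mb (10.2 to 10.5) in the rest, a ratio of 1.15 (1.12 to 1.18). Those of the low-NAA list held 14.7 regions per Mb (14.4 to 15.0), against 12.7 per Mb (12.6 to 12.9) in the rest, a ratio of 1.15 (1.13 to 1.18). Both intervals of the ratio lay above 1. The terminal segments, 20% of the length, thus held 22.3% (21.8 to 22.7) of the chromosomal regions of the high-NAA list and 22.4% (22.0 to 22.8) of those of the low-NAA list. Against the central 20% of the chromosomes the ratio was 1.16 (1.12 to 1.201) in the high-NAA list and 1.17 (1.13 to 1.21) in the low-NAA list.

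**Figure D1:**
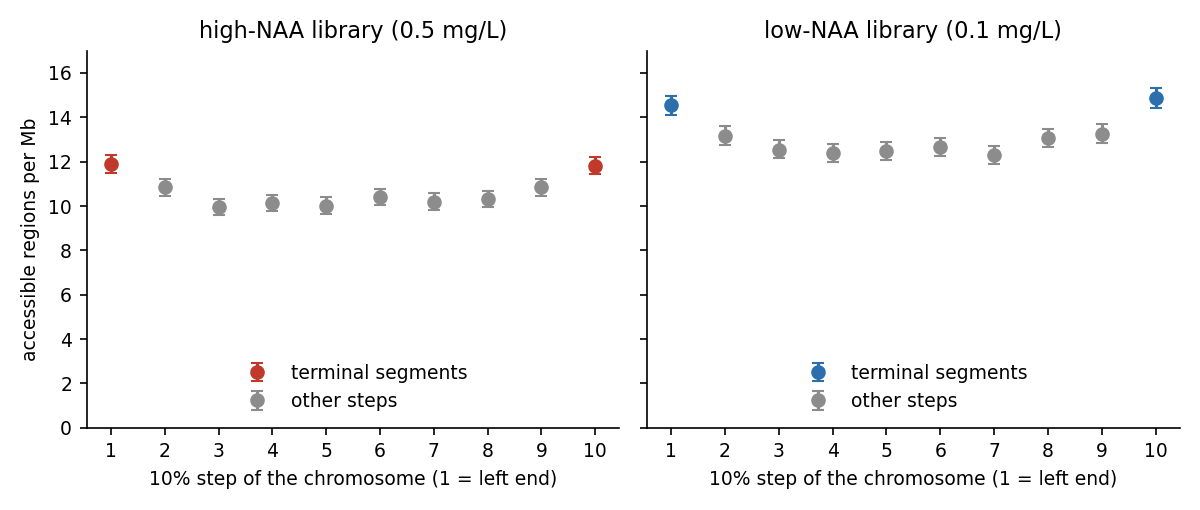
Accessible regions per Mb (y axis) in 10 equal steps of the chromosome length (x axis, from left to right end) summed over 19 chromosomes, with the high-NAA library on the left and the low-NAA library on the right. Bars are exact Poisson 95% intervals, and the terminal segments, in colour, stood at 11.9 and 11.8 per Mb in the high-NAA library and at 14.5 and 14.9 per Mb in the low-NAA library, above each of the other steps.

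The excess was graded within the terminal segments. The outermost 1% of the chromosomes held 13.7 regions per Mb in the high-NAA list and 17.3 per Mb in the low-NAA list. The outer 5% of the high-NAA list held 12.8 per Mb, against 10.9 per Mb in the next 5%, a ratio of 1.17 (1.12 to 1.23). The outer 5% of the low-NAA list held 15.7 per Mb, against 13.7 per Mb in the next 5%, a ratio of 1.15 (1.10 to 1.201). Densities were thus lower in the inner than in the outer 5% in both lists. Just inside the border, from 9 to 10% of the length, there were 10.8 regions per Mb in the high-NAA list and 14.1 (13.2 to 15.1) in the low-NAA list. Just outside it, from 10 to 11%, there were 10.8 in the high-NAA list and 12.6 (11.7 to 13.6) in the low-NAA list. From 11 to 12% there were 12.6 in the high-NAA list and 14.7 in the low-NAA list, so no lasting step down was seen at the border. The inner 5% of the high-NAA list, at 10.9 per Mb, was close to the adjoining 10% of the length, at 10.8. The low-NAA list had 13.7 in the inner 5% and 13.2 in the adjoining 10%. Set against the adjoining 10% of the length at each end, the terminal density was 1.09 times as high (1.06 to 1.13) in the high-NAA list and 1.11 times (1.08 to 1.15) in the low-NAA list.

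Summed over chromosomes, the left and the right ends held nearly equal numbers. There were 3492 regions in the left and 3471 in the right segments of the high-NAA list, a ratio with an interval from 0.960 to 1.05. The low-NAA list had 4270 in the left and 4365 in the right segments, a ratio of 0.978 (0.938 to 1.02). This balance did not extend to the single chromosomes. The interval of the ratio between the ends left out 1 on 14 of 19 chromosomes in the high-NAA list and on 15 of 19 in the low-NAA list, and on 13 of them it did so in both, each time on the same side. With only the outermost 5 Mb at each end this held on 7 chromosomes, 6 of them among the 13, and chromosomes 3, 7, 8, 9 and 13 had uneven ends under each of the 6 alternatives tried, which were chosen after seeing the data. The denser end had a median of 1.45 times the regions of the sparser end in the high-NAA list and 1.40 times in the low-NAA list, with a highest value of 2.45 on chromosome 8 in the high-NAA list and 2.32 on chromosome 13 in the low-NAA list. Unevenness was not confined to the terminal segments. In the adjoining 10% of the length, the high-NAA list had 285 regions at the left and 120 at the right of chromosome 8. The low-NAA list had 264 and 146 there. On chromosome 13 the adjoining 10% held 144 and 161 in the high-NAA list and 208 and 192 in the low-NAA list. Of the 13 chromosomes, all but 13 and 15 had more adjoining regions on the side of the denser end in both lists. The margin differed widely. Chromosome 7 had 160 and 270 in the high-NAA list and 160 and 306 in the low-NAA list. Chromosome 6 had only 180 and 189 in the high-NAA list and 224 and 237 in the low-NAA list. On chromosome 15 the side was the opposite, with 181 and 167 in the high-NAA list and 219 and 203 in the low-NAA list. The ratio in the adjoining 10% and its interval were not computed for each chromosome.

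**Figure D2:**
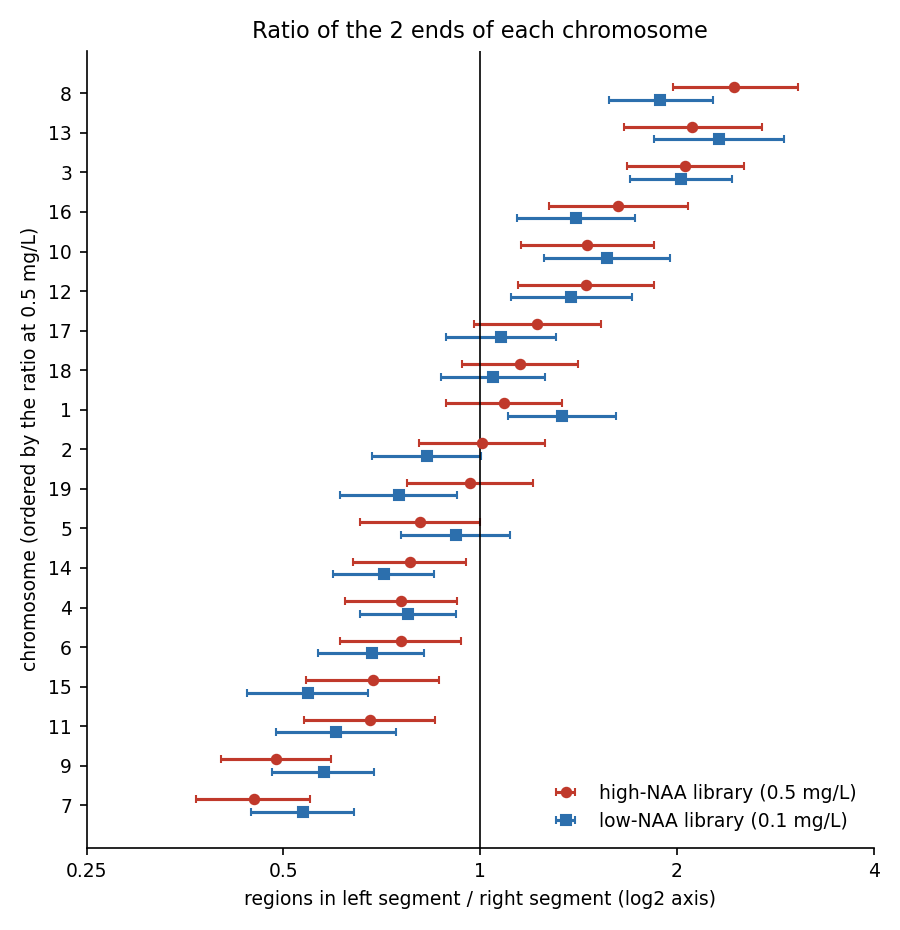
Number of regions in the left segment divided by that in the right segment (x axis, log2 axis) for each of 19 chromosomes (y axis, ordered by the ratio in the high-NAA library), with the high-NAA library in red above the low-NAA library in blue. Bars are exact 95% intervals of the ratio of counts, and on 13 chromosomes they lay on the same side of 1 in both libraries.

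On 6 chromosomes the left end was the denser in both lists beyond its interval, namely 3, 8, 10, 12, 13 and 16. Chromosome 8 had the highest ratio of left to right end in the high-NAA list, with 289 regions at the left and 118 at the right end (2.45, 1.97 to 3.06), and its low-NAA counts were 349 and 185 (1.89, 1.57 to 2.27). Chromosome 13 had the highest ratio in the low-NAA list. Its high-NAA counts were 213 at the left and 101 at the right end (2.11, 1.66 to 2.70), and its low-NAA counts were 257 and 111 (2.32, 1.85 to 2.92). Chromosome 3 also had over 2 regions at the left end for each at the right end, with high-NAA counts of 292 and 142 and low-NAA counts of 377 and 186. On chromosomes 10, 12 and 16 the ratio was smaller, between 1.45 and 1.63 in the high-NAA list and between 1.38 and 1.56 in the low-NAA list. Chromosomes 10 and 16 lost the call at q-values under 1e-05. Chromosomes 12 and 16 lost it at a terminal cut of 0.05 of the length and with the outermost 5 Mb.

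On 7 chromosomes the right end was the denser in both lists beyond its interval, namely 4, 6, 7, 9, 11, 14 and 15. Chromosome 7 had the lowest ratio of left to right end in either list, with high-NAA counts of 145 at the left and 322 at the right end (0.45, 0.37 to 0.55) and low-NAA counts of 188 and 351 (0.54, 0.45 to 0.64). Chromosome 9 had high-NAA counts of 160 at the left and 328 at the right end (0.49, 0.40 to 0.59) and low-NAA counts of 197 and 342 (0.58, 0.48 to 0.69). On both, the right end held well over 1.5 times the regions of the left end. The other 5 had ratios between 0.68 and 0.78 in the high-NAA list and between 0.55 and 0.78 in the low-NAA list. All 5 lost the call with the outermost 5 Mb. Chromosomes 4 and 15 also lost it at q-values under 1e-05, and 4 at q-values under 0.001 and with a fold of at least 4. Chromosomes 6 and 15 lost it at a terminal cut of 0.05 of the length and with a common minimum width of 207 bp.

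The remaining 6 chromosomes did not have an interval beyond 1 in both lists. On chromosomes 2, 17 and 18 the interval held 1 in both lists, with high-NAA ratios of 1.006, 1.22 and 1.15 and low-NAA ratios of 0.83, 1.08 and 1.05. On chromosome 5 the interval left out 1 in the high-NAA list (0.81, 0.656 to 0.999) and held it in the low-NAA list (0.92, 0.757 to 1.11). Chromosomes 1 and 19 had high-NAA ratios of 1.09 and 0.96 with intervals that held 1, and low-NAA ratios of 1.33 and 0.75 with intervals that did not. The same end was the denser in both lists on 18 of the 19 chromosomes, the exception being chromosome 2. The ratios ranked the chromosomes alike in both lists (Spearman's rho 0.970 over 19 chromosomes, Pearson's r 0.951 on the log2 scale), where the points share the assembly and many of the regions.

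Regions that overlapped none of the other list, here called library-specific, form sets with no region in common, so their ends were also set side by side. In these sets the same end was the denser in both libraries on 15 of 19 chromosomes, with a rho of 0.835 and an r of 0.838 on the log2 scale between the ratios. Chromosome 8 held 139 high-NAA-specific regions at its left end and 45 at its right end, and 202 and 112 low-NAA-specific ones. Chromosome 7 held 74 high-NAA-specific regions at its left end and 166 at its right end, and 117 and 198 low-NAA-specific ones. On chromosomes 3, 4, 7, 8, 9, 10, 13 and 16 the interval of the ratio left out 1 on the same side in both library-specific sets. Of the other chromosomes called in both full lists, 6, 11, 14 and 15 had an interval that held 1 in the high-NAA-specific set. On chromosome 12 it held 1 in both sets. Uneven ends were thus present in sets that do not overlap on some of the chromosomes called. Both libraries were read on 1 assembly with 1 caller, so the sets share these.

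The 38 single ends spanned a wider range of densities than the pooled rest of each chromosome did. In the high-NAA list the lowest end had 6.57 regions per Mb, the median end 11.5 and the highest end 23.9, so that the highest was 3.63 times the lowest. For the low-NAA list the lowest end had 7.22 per Mb, the median end 14.4 and the highest end 25.3, a span of 3.51 times. Across the rest of each of the 19 chromosomes the highest density was 1.56 times the lowest in the high-NAA list and 1.43 times in the low-NAA list, over stretches that are longer and so carry less counting error. In the adjoining 10% at the same ends, of equal length, densities ran between 6.06 and 20.7 per Mb in the high-NAA list. In the low-NAA list they ran between 7.38 and 20.1 per Mb, so a wide range was not particular to the ends. The sparsest end was the right end of chromosome 13 in both lists. The densest was the right end of chromosome 9 in the high-NAA list and the left end of chromosome 8 in the low-NAA list, where the right end of chromosome 9, at 24.9 per Mb, came next with an interval (22.3 to 27.7) that overlapped that of the first (22.7 to 28.1).

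**Figure D3:**
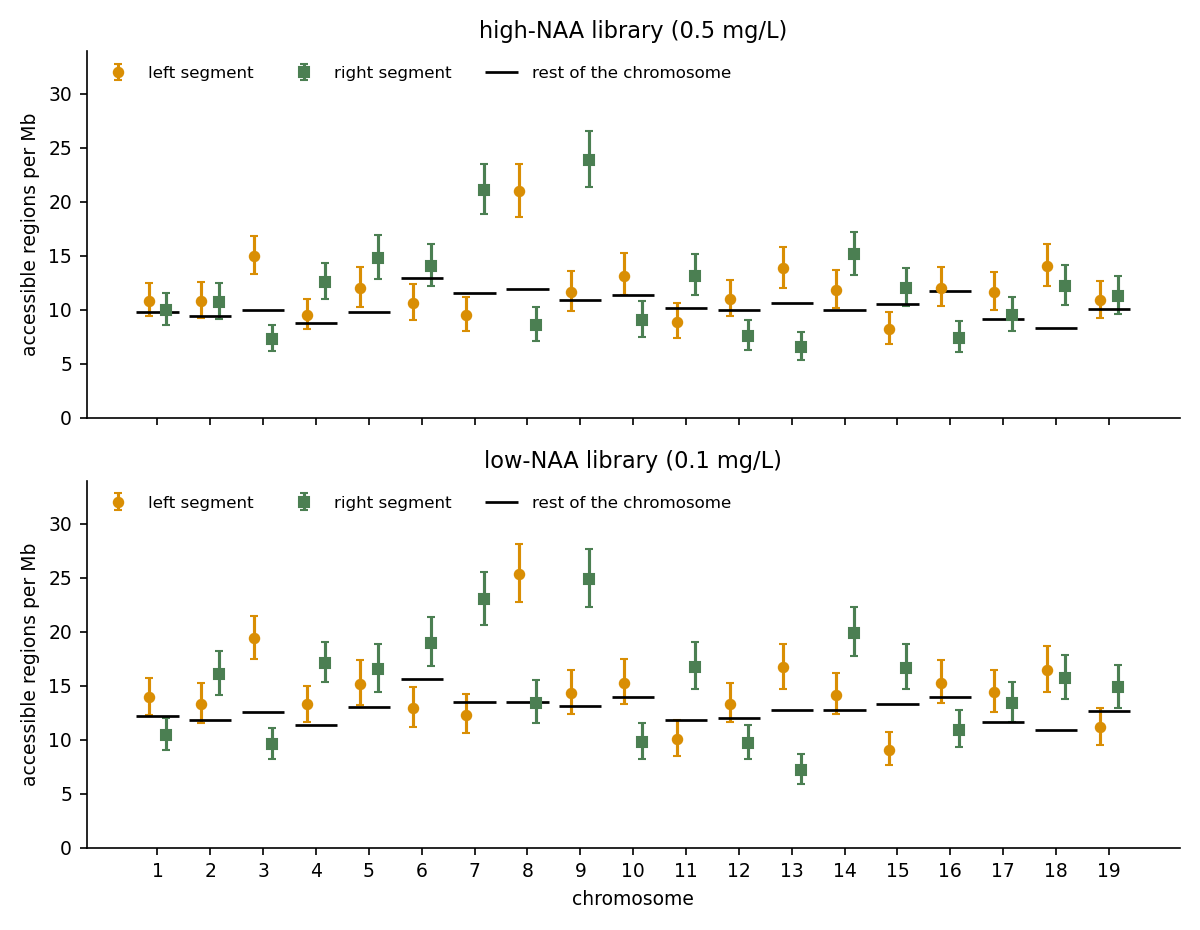
Accessible regions per Mb (y axis) in the left segment (circles), the right segment (squares) and the rest (black lines) of each of 19 chromosomes (x axis), with the high-NAA library above the low-NAA library and exact Poisson 95% intervals as bars. The left end of chromosome 8 and the right ends of chromosomes 7 and 9 stood above 20 per Mb in both libraries, whereas the right end of chromosome 13 stood at 6.57 per Mb in the high-NAA library and 7.22 per Mb in the low-NAA library.

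Each end was then set against the rest of its own chromosome. In the high-NAA list 14 of 38 ends were denser than their own rest beyond the interval of the ratio, 9 were sparser and 15 had an interval that held 1. The low-NAA list had 19 denser ends, 8 sparser ends and 11 whose interval held 1. In both lists 13 ends were denser, 7 were sparser, and 0 ends were denser in one list and sparser in the other. The 13 denser ends were the left ends of chromosomes 3, 5, 8, 13, 17 and 18 and the right ends of chromosomes 4, 5, 7, 9, 11, 14 and 18. The 7 sparser ends were the left ends of chromosomes 6 and 15 and the right ends of chromosomes 3, 10, 12, 13 and 16. Thus chromosomes 5 and 18 were denser at both ends, and chromosomes 3 and 13 combined a denser left end with a sparser right end.

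Some ends were far denser than the rest of their chromosome and others far sparser. The right end of chromosome 9 had 2.18 times the density of its rest (1.92 to 2.46) in the high-NAA list and 1.90 times (1.68 to 2.14) in the low-NAA list. The right end of chromosome 13 had 0.617 times the density of its rest (0.499 to 0.756) in the high-NAA list and 0.565 times (0.462 to 0.685) in the low-NAA list. When the ends of a chromosome were pooled, these differences partly cancelled. The terminal density over that of the rest then ran between 0.830 on chromosome 16 and 1.62 on chromosome 9 in the high-NAA list (median 1.12), and between 0.895 on chromosome 10 and 1.496 on chromosome 9 in the low-NAA list (median 1.15). It was above 1 on 13 chromosomes in the high-NAA list and on 14 in the low-NAA list, with an interval above 1 on 10 in the high-NAA list and on 11 in the low-NAA list. Only on chromosome 16 in the high-NAA list did the whole interval lie below 1.

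The 3 chromosomes that held the densest and the sparsest ends differed in how the density ran over the first steps inward. From the right end of chromosome 9 the density declined over 4 steps of 5 Mb, with 28.6, 22.2, 19 and 12.4 regions per Mb in the high-NAA list and 30.2, 22.6, 20.4 and 13.8 in the low-NAA list. From the left end of chromosome 8 it was level over the first 3 steps, with 21.2, 21.2 and 22.0 per Mb in the high-NAA list and 25, 25.6 and 25.8 in the low-NAA list, and then stood at 20.6 in the high-NAA list and 19.6 in the low-NAA list. From the right end of chromosome 13 the first steps were the sparse ones, with 5.6, 3.6, 9.4 and 11.8 per Mb in the high-NAA list and 5.6, 4.6, 10.6 and 14.0 in the low-NAA list. Over these 4 steps the density thus ran in opposite directions on chromosomes 9 and 13, and each shape was seen in both lists. Neither trend held throughout the next 4 steps inward. From the right end of chromosome 9 these had 14.6, 18.2, 13.8 and 11.8 per Mb in the high-NAA list. The low-NAA list had 15, 20, 16.6 and 14.6 there. From the right end of chromosome 13 they had 12.6, 8.8, 5.4 and 9.4 per Mb in the high-NAA list. The low-NAA list had 13.8, 11.6, 9.2 and 10.6 there. Over all 38 ends, the density of a terminal segment and that of the adjoining 10% had a rho of 0.491 in the high-NAA list and 0.537 in the low-NAA list.

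**Figure D4:**
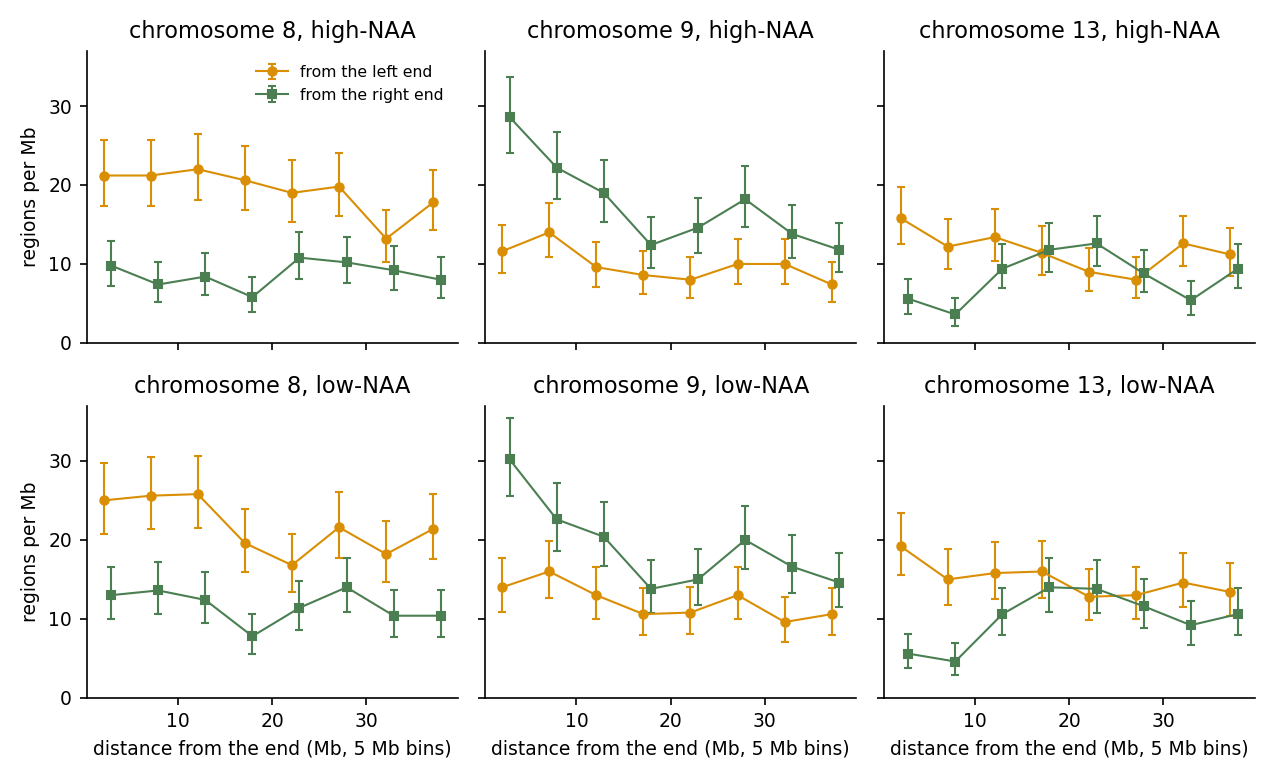
Accessible regions per Mb (y axis) in steps of 5 Mb by distance from each end (x axis) on chromosomes 8, 9 and 13, with the high-NAA library in the upper row and the low-NAA library in the lower row. Bars are exact Poisson 95% intervals, and the outermost step from the right end of chromosome 9 reached 28.6 per Mb in the high-NAA library and 30.2 in the low-NAA library, while the same step on chromosome 13 had 5.6 per Mb in both.

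Terminal regions were close to the others in width. Their median width in the high-NAA list was 233 bp (quartiles 186 and 312), against 232 bp in the rest, a ratio of 1.00 (0.987 to 1.02). The low-NAA list had a terminal median of 322 bp (quartiles 255 and 432.5), against 316 bp in the rest, a ratio of 1.02 (1.00 to 1.04). A difference of a few bp in the low-NAA list was therefore the most that width showed. Regions of at least 800 bp made up 0.158% of the terminal regions and 0.222% of the rest in the high-NAA list, and 1.99% of the terminal regions and 1.87% of the rest in the low-NAA list. Over single ends the median width ran between 216.5 and 255 bp in the high-NAA list and between 286 and 344 bp in the low-NAA list, so these ranges did not overlap. The narrowest terminal region was 150 bp in the high-NAA list and 207 bp in the low-NAA list. The lists thus differ in their lower limit of width, and what this does to widths compared between them was not tested. Open sequence per Mb was 3157 bp in the terminal segments and 2730 bp in the rest of the high-NAA list, and 5393 bp in the terminal segments and 4580 bp in the rest of the low-NAA list, ratios of 1.16 and 1.18.

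About as many terminal regions as others were shared, that is, overlapped a region of the other list by at least 1 bp. In the high-NAA list 3534 terminal regions (50.8%, 49.6 to 51.9) were shared, where the share over the whole list was 50.4%. Of the low-NAA terminal regions 3496 (40.5%, 39.4 to 41.5) were shared, where the share over the whole list was 40.3%. Against the rest of the chromosomes, at 50.1% for the high-NAA list and 40.4% for the low-NAA list, the terminal share was higher by 0.62 percentage points (-0.71 to 1.95) in the high-NAA list and by 0.089 points (-1.08 to 1.27) in the low-NAA list. The low-NAA difference turned to -1.17 points at q-values under 0.001 and -2.09 points at q-values under 1e-05. At the rank mix of the terminal regions the low-NAA share was 40.5% in the terminal segments and 41.0% in the rest. The high-NAA share at that mix was 50.8% in the terminal segments and 49.6% in the rest, so the lists leaned in opposite directions. Both intervals of the difference given above held 0, and a terminal share more than 1.95 points higher in the high-NAA list, or more than 1.27 points higher in the low-NAA list, lay outside them. The terminal share was above that of the rest on 8 of 19 chromosomes in the high-NAA list and on 9 of 19 in the low-NAA list.

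Among single ends the shared fraction covered a broad range. In the high-NAA list its extremes were 40.7% (33.1 to 48.7) at the left end of chromosome 19 and 63.2% (55.3 to 70.6) at the right end of chromosome 2. The extremes in the low-NAA list were 32.7% (26.4 to 39.5) at the right end of chromosome 17 and 50.9% (45.4 to 56.3) at the right end of chromosome 9. These are the extremes of 38 ends of 101 to 377 regions each, so counting error alone spreads them, and whether the ends differ beyond it was not tested. Density and shared fraction had a rho of -0.006 in the high-NAA list and 0.107 in the low-NAA list over 38 ends. Shared terminal regions were wider than library-specific ones, at a median of 269 against 205 bp in the high-NAA list and 369 against 297 bp in the low-NAA list.

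Sharing increased with the strength of a region, by the −log10 q-value that the caller gives each region for its summit pileup over the local background, in the terminal segments as in the rest. In the strongest 10% of the high-NAA list 85.8% of the terminal regions and 85.0% of the rest were shared, and in its weakest 10% the shares were 15.8% of the terminal regions and 14.3% of the rest. For the low-NAA list 91.8% of the terminal regions and 92.4% of the rest were shared in the strongest 10%, and 6.15% and 6.85% in the weakest. Among the 20 comparisons at matched strength the interval of the difference left out 0 in 1, the next to weakest step of the high-NAA list, with 29.5% in the terminal segments and 25.5% in the rest. The terminal share was the higher in 9 of 10 steps of the high-NAA list and in 2 of 10 steps of the low-NAA list.

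**Figure D5:**
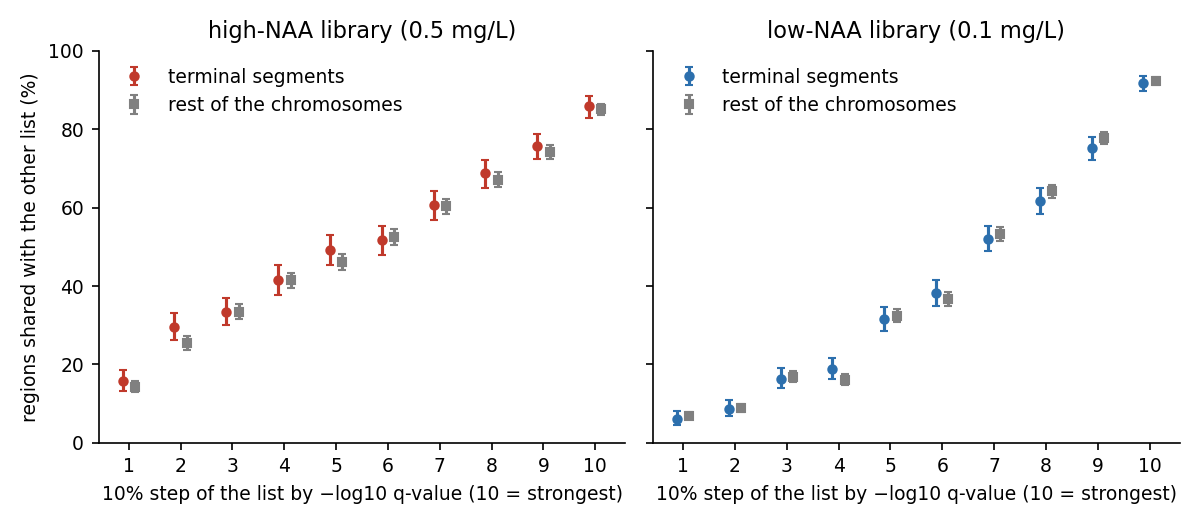
Percent of regions that overlapped a region of the other list (y axis) in 10 equal steps of the list by −log10 q-value (x axis, 10 the strongest), for the terminal segments (colour) and the rest of the chromosomes (grey), with the high-NAA library on the left and the low-NAA library on the right. Bars are exact binomial 95% intervals, and the terminal regions ran close to the rest up to the strongest step, at 85.8% and 85.0% in the high-NAA library and 91.8% and 92.4% in the low-NAA library.

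Where a terminal region had a single partner in the other list, both summits lay close together. Among 3449 such pairs the summits were a median of 57 bp apart, and 71.4% (69.9 to 72.9) were within 100 bp, against 56 bp and 72.0% among 11941 pairs in the rest. The fold, the summit pileup over the local background with 1 added to each, had a rho of 0.499 between the lists over the terminal pairs and 0.482 over the other pairs, across regions that are not independent replicates. The high-NAA region was the narrower of the pair in 76.2% of the terminal pairs and in 76.5% of the others, in lists with different lower limits of width.

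Terminal regions were about as strong as the others. The median −log10 q-value was 5.16 in the terminal segments and 5.23 in the rest of the high-NAA list, and 3.84 in the terminal segments and 3.75 in the rest of the low-NAA list. The median fold was 5.83 in the terminal segments and 5.88 in the rest of the high-NAA list, and 4.67 in both for the low-NAA list. The strongest 10% of the high-NAA list took in 9.34% of the terminal regions and 10.2% of the rest, a difference of -0.86 points (-1.62 to -0.06), and that of the low-NAA list took in 10.0% of each. The strength of a region thus showed no excess at the ends to match that in number.

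At their higher density, terminal regions also lay closer to each other, and no distance expected at that density was computed. The median distance to the nearest summit of the same list was 21.1 kb in the terminal segments and 23.8 kb in the rest of the high-NAA list, and 18.4 kb in the terminal segments and 21.7 kb in the rest of the low-NAA list. A neighbour within 5 kb was found for 15.3% of the terminal regions and 14.0% of the rest in the high-NAA list, a difference of 1.28 points (0.34 to 2.24). The low-NAA shares were 13.4% of the terminal regions and 11.9% of the rest, a difference of 1.53 points (0.73 to 2.35). The local background, solved from the deposited fold and −log10 p-value, had a median of 0.419 fragments in the terminal segments and 0.404 in the rest of the high-NAA list, and of 1.21 in the terminal segments and 1.17 in the rest of the low-NAA list. Over 38 ends it went with the density of regions, with a rho of 0.314 in the high-NAA list and 0.767 in the low-NAA list, and its part in the density was not tested.

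The terminal segments followed the rest of the chromosomes in how the lists compared in number. The high-NAA list had 0.806 times as many terminal regions as the low-NAA list (0.781 to 0.832), against 0.812 times (0.798 to 0.826) in the rest. Over the 38 ends the lowest ratio was 0.638 at the right end of chromosome 8, with 118 high-NAA and 185 low-NAA regions, and the highest 0.976 at the left end of chromosome 19, with 162 high-NAA and 166 low-NAA regions. The median end had 0.799, and 0 ends had more regions in the high-NAA list. The interval left out the ratio of the rest at 2 of 38 ends: the right end of chromosome 8 (0.502 to 0.808) below it and the right end of chromosome 9, at 0.959 (0.822 to 1.12), above it. The median local background at terminal regions was the lower in the high-NAA list, as given above, as was the number of regions. The lowest local background solved on the chromosomes was 0.172 fragments in the high-NAA list and 0.747 in the low-NAA list. Its part in the number of regions was not tested. Read totals are not given, so the depth of the libraries was not measured, and depth and concentration cannot be told apart. With only the regions of a q-value under 1e-05, the ratio in the terminal segments was 1.22, so the order of the concentrations turned with the threshold. With only the regions of at least 207 bp, the narrowest width in the low-NAA list, it was 0.507.

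The 3 strongest terminal regions were the same in both lists and all lay at left ends. The first was at chr13:9523492-9523801 in the high-NAA list, with a −log10 q-value of 705 and a fold of 47.6, and at chr13:9523488-9523799 in the low-NAA list, with 884 and 35.2. The second was at chr15:3576352-3576632 in the high-NAA list, with a −log10 q-value of 562 and a fold of 41.1, and at chr15:3576352-3576628 in the low-NAA list, with 728 and 31.1. The third was at chr13:2451939-2452249 in the high-NAA list, with a −log10 q-value of 515 and a fold of 50.8, and at chr13:2451936-2452247 in the low-NAA list, with 621 and 37.1. Their summits were 0, 3 and 6 bp apart between the lists, and all had the higher fold in the high-NAA list and the higher −log10 q-value in the low-NAA list. Coordinates here are on Niben261, counted from 1, and what these regions hold was not analysed here.

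The strongest terminal regions without a partner differed in −log10 q-value, fold and width between the lists. In the high-NAA list the first was at chr12:156109532-156109702, 171 bp wide with a −log10 q-value of 134 and a fold of 33.3. The second was at chr4:173374419-173374585, 167 bp wide with 128 and 36.9, and the third at chr14:148013535-148013763, 229 bp wide with 33.6 and 16.8. The first and the second were narrower than 207 bp, the narrowest width in the low-NAA list. Of all terminal regions of the high-NAA list 37.1% were under that width, against 37.9% of the rest. The strongest without a partner in the low-NAA list were at chr14:9501322-9501637, with a −log10 q-value of 22.4 and a fold of 12.7, at chr11:138591938-138592469, with 18.1 and 10.1, and at chr15:146388501-146388775, with 17.9 and 11.3. They were all of a lower −log10 q-value and fold than the 3 of the high-NAA list. Both measures depend on the local background, which differed between the lists, so whether accessibility differed was not tested.

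Both lists reached close to coordinate 1 of the assembled chromosomes. The region nearest to it was at chr14:3676-3939 in the high-NAA list, where it overlapped a low-NAA region, and at chr12:817-1081 in the low-NAA list, where it had no partner. The first summit of a chromosome lay 3.87 to 466 kb from coordinate 1 in the high-NAA list (median 115 kb) and 0.876 to 217 kb in the low-NAA list (median 38.6 kb). At the right end the last region itself set the length, so no such distance is given. The widest terminal regions, picked after their values were seen, were 991 bp at chr11:3836435-3837425 in the high-NAA list and 1448 bp at chr9:4751398-4752845 in the low-NAA list.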

How the data were processed

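ATAC-seq was performed on nuclei from about 80 explants, with 1 library per NAA concentration. Per the study's methods, reads were aligned to the N. benthamiana genome with BWA. The submitters' processing notes name Trimmomatic 0.39 and MACS2 2.2.7.1. The authors called regions in each library on its own. The score in the deposited lists is the −log10 q-value scaled and cut to a whole number. The deposited fold is the ratio of summit pileup to local background with 1 added to both, and the deposited −log10 p-value and −log10 q-value rank regions within a library. The largest q-value was 0.0482 in the high-NAA list and 0.0495 in the low-NAA list. Read totals, duplicate handling and the Tn5 offset are not given in the sources used here.

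Regions were placed by summit (Python 3.11.15, pandas 2.3.3, SciPy 1.17.1). Densities carry exact Poisson, shares exact Clopper-Pearson, ratios of counts exact binomial, differences of shares Newcombe and medians order-statistic intervals. The interval of a width ratio joins opposite bounds of both medians and is therefore wider than 95%. No p-value was computed. Fold and −log10 p-value were solved for a whole-number pileup and a background, which 24 regions of the high-NAA list and 30 of the low-NAA list, all with a −log10 p-value above 300.0, did not allow. A further 10 regions of the high-NAA list and 5 of the low-NAA list had several solutions and were left out as well. The procedures were tested on simulated data. The members and measures were chosen with earlier results of these data known. Named were, per list, the 3 strongest terminal regions, the 3 strongest without a partner, the region nearest coordinate 1, and the ends and chromosomes of extreme density or ratio. Other thresholds, widths, overlaps and terminal cuts were tried as alternatives. Scaffold regions were counted only. Genes and sequence were not analysed here.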

Additional observations from a re-analysis of the deposited data

How the results depend on the processing

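Of 90 values recomputed under 11 alternative settings, 77 stayed within the interval of the value reported (for counts of chromosomes, within 1.5 times), 12 moved further and 1, the ratio between the lists, reversed. The density ratio of terminal segments over the rest stayed above 1 in all of them, between 1.12 and 1.28 in the high-NAA list and between 1.14 and 1.27 in the low-NAA list. It was higher nearer the tips, at 1.23 in both lists with a terminal cut of 0.05 of the length, and at 1.28 in the high-NAA list and 1.27 in the low-NAA list with the outermost 5 Mb. The ratio of the number of terminal regions in the high-NAA list to that in the low-NAA list was 0.955 at q-values under 0.001, 1.22 at q-values under 1e-05 (the reversal), 0.902 with a fold of at least 4, 0.988 with equal numbers of the strongest regions, 0.507 with a common minimum width of 207 bp and 0.585 in covered bp. The cause was not tested. Among the values that moved further, the shared difference of the low-NAA list also changed sign, to -1.17 points at q-values under 0.001 and -2.09 points at q-values under 1e-05. The number of chromosomes with uneven ends on the same side in both lists was recomputed under settings chosen after seeing the data. It was 13 as reported, 7 with the outermost 5 Mb, where fewer regions are counted, and between 9 and 12 under the other 5 settings. Chromosomes 3, 7, 8, 9 and 13 were among them under every one of these settings. No paired analysis was possible because there is 1 library at either concentration. The median terminal summit held 7 fragments in the high-NAA list and 10 in the low-NAA list, and what depth does to the lists was not tested.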
